A study of Homo sapiens with 6 samples.

Results

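The genes described here are 30 named human genes of ribosome biogenesis: 8 that encode small nucleolar ribonucleoprotein (snoRNP) proteins, 7 that act on the small subunit, 8 that act on the large subunit, 3 that encode subunits of RNA polymerase I and 4 nucleolar proteins that act at several steps. All 30 were found among the 19498 genes of the deposited table, and all 30 were among the 16658 genes that reached a normalised value of 10 in 3 or more of the 6 libraries and were tested. The libraries are polyadenylated RNA from K562, a human chronic myeloid leukaemia cell line that carries the BCR::ABL1 fusion and has erythroid and megakaryocytic features. There were 3 biological replicates with the genotype ACK KO and 3 with the genotype WT, all grown in medium with 10% serum, with no agent named, with 500 ng of input RNA per library and an RNA integrity number of 10 throughout. ACK is a non-receptor tyrosine kinase that binds Cdc42 and is encoded by TNK2, and the series asks how the kinase relates to transcription by STAT5.

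The labels give neither the edit that makes the knockout nor whether the ACK KO cells are 1 clone, so an effect of the genotype and one of the line cannot be told apart. The replicates are called biological with no word on cultures, and the p-values cover the spread among these 6 libraries and no more. TNK2 had normalised values of 741.2, 505.8 and 597.7 in ACK KO replicates 1 to 3, against 829.7, 612.5 and 641.6 in WT replicates 1 to 3. The groups overlapped, with a log2 difference of -0.18 (95% interval -0.68 to 0.32) and p = 0.4 in an exact two-sided permutation test whose smallest possible p is 0.1. The amount of TNK2 RNA therefore does not check the genotype labels, and ACK KO below means libraries labelled so. Library sums, in units of 1e6, ran from 43.5 to 49.5 in ACK KO and from 46.7 to 53.3 in WT, and read depth is unknown because the values are already normalised. All 12 markers fixed for K562, among them GATA1 and the gamma globins, were among the tested genes, with summed values of 88969.8 to 137500.3 in ACK KO and 75921 to 142723 in WT. The sums overlapped, and 3 of the 12 markers separated the genotypes, as did 30% of all tested genes. The embryonic globin gene HBE1 had 9391 to 17322 in ACK KO and 1031 to 1527 in WT, ALAS2, the first enzyme of erythroid haem synthesis, had 1528 to 2604 in ACK KO and 528.9 to 963.7 in WT, and GATA1 had 6863 to 7029.8 in ACK KO and 8842 to 9877 in WT. Of 6 lymphoid markers 4 had values, summing to 1002 to 1778 in ACK KO and 508.6 to 1806 in WT, nearly all of it CD3D, and MS4A1 and CD2 were not among the genes listed. Of 8 epithelial and fibroblast markers 5 had values, summing to 4701 to 5294 in ACK KO and 4383 to 5188 in WT, nearly all of it EPCAM, and the fibroblast collagen gene COL1A1 had 74.6 to 204.3 in ACK KO and 4.68 to 32.2 in WT. The part of these markers in the results below was not tested.

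Ribosomes are assembled in the nucleolus. RNA polymerase I transcribes a long precursor that holds the 18S, 5.8S and 28S ribosomal RNAs. SnoRNPs guide chemical modification of the precursor, box C/D particles adding methyl groups and box H/ACA particles making pseudouridine, and a large assembly, the small subunit processome, folds and cuts the part that becomes the small subunit. Other factors, such as the complex of PES1, BOP1 and WDR12, process the part that becomes the large subunit. Many of these genes are known targets of MYC, and their output is known to follow cell growth.

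The feature that the 30 genes shared was a low level in replicate 1 of both genotypes. Each of the 30 was lower in replicate 1 than in replicates 2 and 3, in ACK KO and in WT, which held for 33.3% of all tested genes. The median over the 30 genes of replicate 1 minus the mean of replicates 2 and 3, on the log2(normalised value + 1) scale, was -1.06 in ACK KO and -1.36 in WT, against 0.02 and 0.03 over all tested genes. Replicate 1 thus held a median of 48.1% of the level of the other replicates in ACK KO and 39.0% in WT. In both genotypes at once, 17 of the 30 genes were at least 2-fold lower in replicate 1, where 2.35% of tested genes were. Replicate 1 was singled out because its libraries had been seen to stand apart, so these differences are a description and carry no test. In a bulk sample, fewer cells that express a gene and less RNA per cell cannot be told apart. The labels say that the cells were collected when matched CUT&RUN samples were prepared, but not what the replicate numbers stand for.

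**Figure D1:**
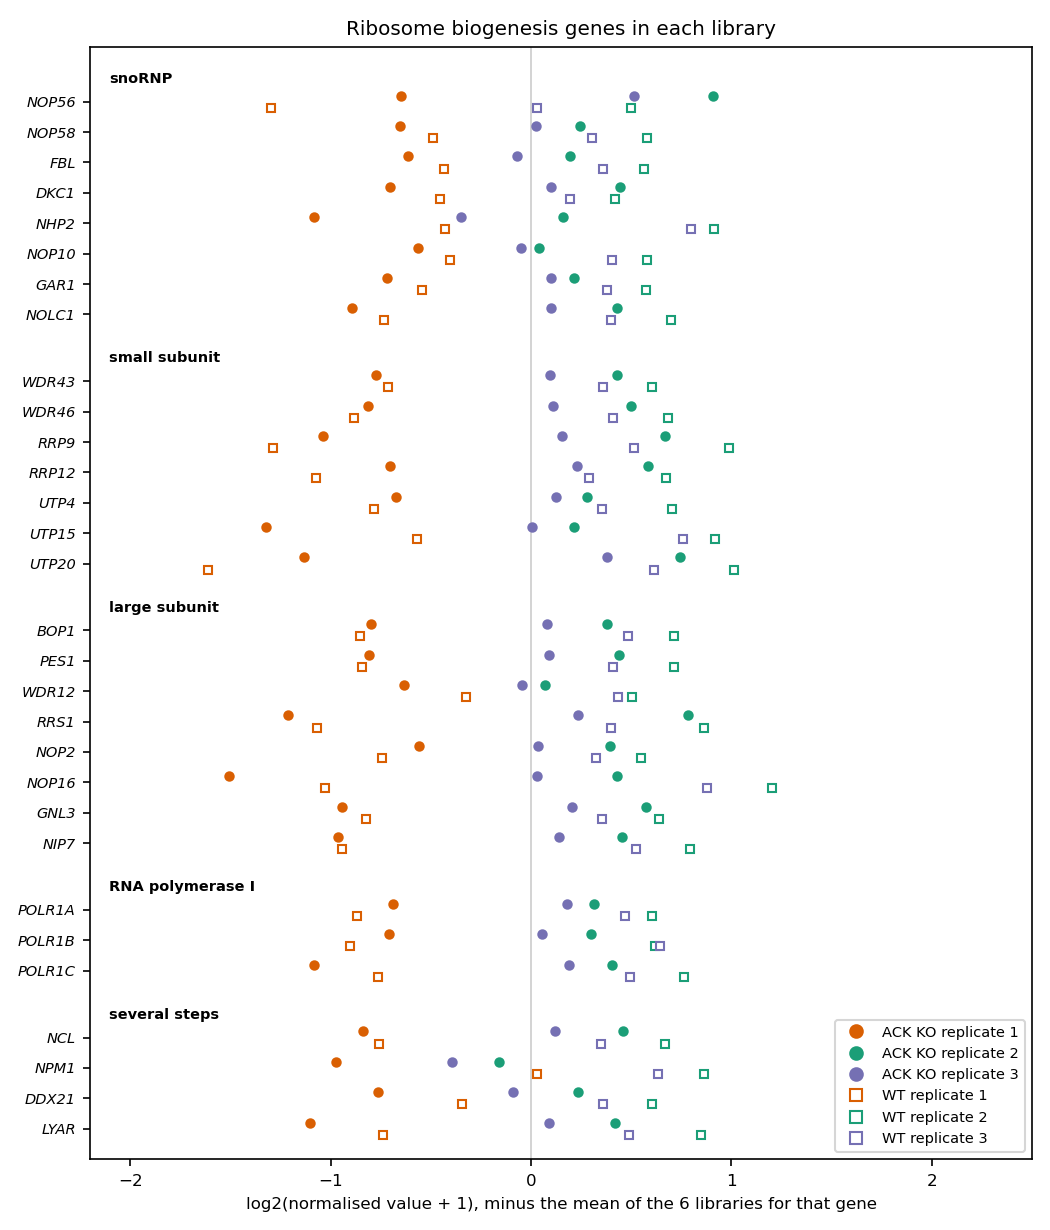
Each point is 1 library. The horizontal axis is log2(normalised value + 1) minus the mean of the 6 libraries for that gene, genes run down the page by step, filled circles are ACK KO, open squares are WT, and colours mark the replicate number. Replicate 1 is lowest within its genotype for all 30 genes.

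The order of the other replicates was shared as well. Replicate 2 lay above replicate 3 in both genotypes for 29 of the 30 genes, against 36.2% of tested genes. Replicate 2 lay above replicate 3 and replicate 3 above replicate 1, in both genotypes, for 29 of the 30 genes, an order that 20.4% of tested genes had. The exception was POLR1B, which encodes the second largest subunit of RNA polymerase I and had 7053 in WT replicate 2 and 7172 in WT replicate 3. Added over the 30 genes, normalised values were 203002, 447047 and 362790 in ACK KO replicates 1 to 3, against 259806, 594157 and 494234 in WT replicates 1 to 3. NCL and NPM1 weigh most in these sums, with 45821 and 44832 in ACK KO replicate 1 and 48447 and 89707 in WT replicate 1. The 30 genes made up 0.467%, 0.904% and 0.767% of the sum of ACK KO replicates 1 to 3 and 0.556%, 1.11% and 0.982% of the sum of WT replicates 1 to 3.

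UTP20, which encodes a very large scaffold protein of the small subunit processome, had the widest gap of the 30 in WT. Its normalised values were 2971, 10914 and 8462 in ACK KO replicates 1 to 3, against 2128, 13144 and 9983 in WT replicates 1 to 3. Replicate 1 held 30.9% of the level of the other replicates in ACK KO and 18.6% in WT. RRP9, whose product is the U3-specific protein of the snoRNP that nucleates the processome, had 524.3, 1713 and 1197 in ACK KO, against 440.9, 2139 and 1536 in WT. Replicate 1 again lay far below the others, at 36.7% of their level in ACK KO and 24.4% in WT. NOP16 and RRS1, both large subunit factors, had differences of -1.74 and -1.72 in ACK KO and -2.07 and -1.70 in WT on the log2 scale. The smallest gaps were those of NOP10 in ACK KO, with -0.56, and of NPM1 in WT, with -0.72.

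By step, the median log2 difference of replicate 1 in ACK KO was -0.92 for the snoRNP genes, -1.12 for the small subunit genes, -1.17 for the large subunit genes, -0.94 for the RNA polymerase I genes and -0.98 for the genes of several steps. The same medians in WT were -0.98, -1.43, -1.43, -1.41 and -1.05. The gap was wider in WT than in ACK KO for 25 of the 30 genes, where 50.6% of tested genes had a wider gap in WT. Whether the gap differs between the genotypes cannot be tested with 1 library of replicate 1 in each.

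**Figure D2:**
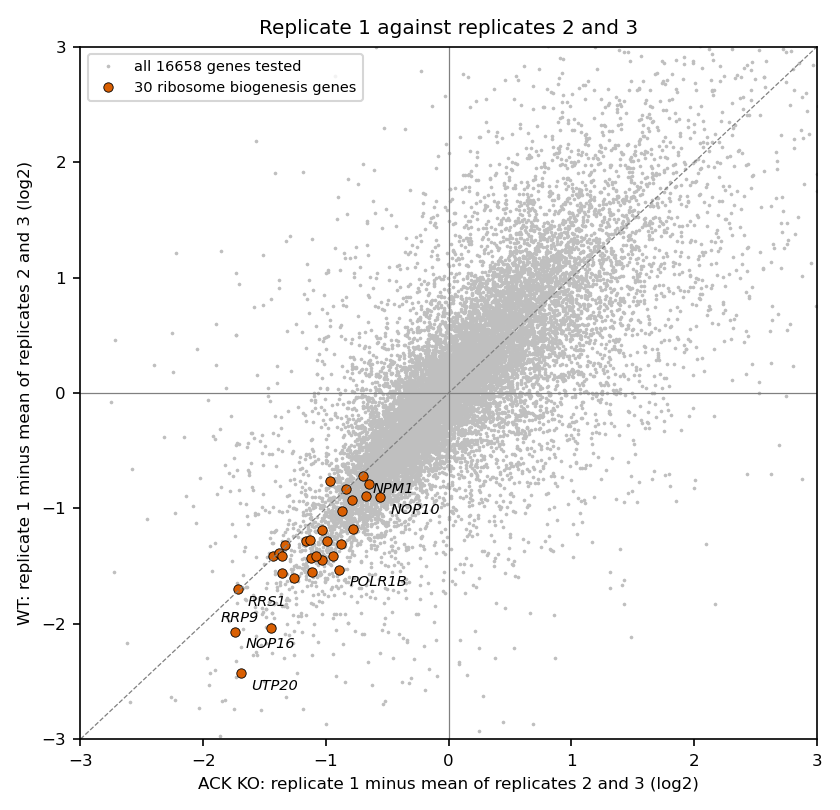
Each grey point is 1 of 16658 tested genes and each orange point 1 of the 30 ribosome biogenesis genes. Both axes give replicate 1 minus the mean of replicates 2 and 3 in log2 units, ACK KO on the horizontal and WT on the vertical axis, the dashed line marks equal differences, and 193 genes lie outside the limits of 3 in either direction. All 30 orange points lie in the lower left, most of them below the dashed line.

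MYC, the transcription factor that binds the promoters of many growth genes, was also lower in replicate 1. It had 9399 normalised counts in ACK KO replicate 1, against 14748 and 12885 in ACK KO replicates 2 and 3, and 11786 in WT replicate 1, against 16249 and 14302 in WT replicates 2 and 3. Its log2 difference of replicate 1 was -0.55 in ACK KO and -0.37 in WT, smaller than those of the 30 genes in WT and, in ACK KO, just short of the -0.56 of NOP10. The summed K562 markers were also lowest in replicate 1, with 88969.8 in ACK KO replicate 1 and 75921 in WT replicate 1. But of the 12 markers 4, HBG1, HBG2, HBZ and TFRC, were lowest there in both genotypes, against 33.3% of all tested genes. The summed values of 5 mitochondrially encoded genes were also lowest in replicate 1, with 1725598 in ACK KO and 2017868 in WT, against 2007379.9 to 2081244 in the other ACK KO libraries and 2132399 to 2252767 in the other WT libraries. Of these 5 genes 2, MT-ND1 and MT-ATP6, were lowest in replicate 1 of both genotypes, again against 33.3% of all tested genes. MT-ND4 and MT-CYB were highest in WT replicate 1, with 712482 and 203222. The part of MYC, of these markers and of the library sums in the low values of replicate 1 was not tested.

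Since the 30 genes moved together, their promoters were searched for the letters CACGTG, the E-box that MYC with its partner MAX is known to bind, and for CACGCG, a variant of it. Both were sought on both strands, in windows from 250 bases before to 50 bases after the transcript start, and as the letters differ no match counts for both. RefSeq windows (GRCh38.p14) were held for 25 of the 30 genes, and BOP1, NOLC1, NOP58, RRP12 and RRS1 had none. CACGTG was present for 13 of the 25 genes, or 52.0%, against 12.4% of 11152 tested genes with a window. By window it was in 41.9% of 31 windows of the 30 genes, in 9.35% of the windows of tested genes and in 7.26% of all 35116 windows. CACGCG was present for 6 of the 25 genes, or 24.0%, against 22.4% of tested genes. The 13 genes with CACGTG had median replicate 1 differences of -1.03 in ACK KO and -1.31 in WT, and the 12 without it had -1.06 and -1.40, so the low replicate 1 values were found with and without these letters in the window.

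The 4 promoters printed are those of the 2 small subunit genes with wide replicate gaps, which hold the motif, and of NPM1 and NOP56, which differed most between the genotypes in each direction and hold neither motif in the windows printed. NPM1 has 2 windows, and the other one, not printed, holds CACGCG, so NPM1 is among the 6 genes counted for it. Each runs 5′ to 3′ on the strand of its gene, with CACGTG in capitals. It begins 10 bases before the start of UTP20 and 5 bases before that of RRP9. The windows are, in GRCh38.p14, chr12:101279855-101280154 on the plus strand for UTP20, chr3:51941855-51942154 on the minus strand for RRP9, chr5:171386866-171387165 on the plus strand for NPM1 and chr20:2652382-2652681 on the plus strand for NOP56.
UTP20: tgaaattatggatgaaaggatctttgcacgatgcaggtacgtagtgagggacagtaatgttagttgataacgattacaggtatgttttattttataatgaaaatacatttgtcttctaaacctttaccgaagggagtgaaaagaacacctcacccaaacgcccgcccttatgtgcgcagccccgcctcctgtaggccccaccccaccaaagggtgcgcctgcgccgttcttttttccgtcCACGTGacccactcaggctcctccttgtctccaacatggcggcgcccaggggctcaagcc
RRP9: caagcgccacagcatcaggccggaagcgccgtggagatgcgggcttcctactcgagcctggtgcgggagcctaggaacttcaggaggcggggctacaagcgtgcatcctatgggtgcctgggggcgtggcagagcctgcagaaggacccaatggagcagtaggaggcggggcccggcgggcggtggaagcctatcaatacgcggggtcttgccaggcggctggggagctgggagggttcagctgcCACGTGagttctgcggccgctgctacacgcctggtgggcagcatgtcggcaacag
NPM1: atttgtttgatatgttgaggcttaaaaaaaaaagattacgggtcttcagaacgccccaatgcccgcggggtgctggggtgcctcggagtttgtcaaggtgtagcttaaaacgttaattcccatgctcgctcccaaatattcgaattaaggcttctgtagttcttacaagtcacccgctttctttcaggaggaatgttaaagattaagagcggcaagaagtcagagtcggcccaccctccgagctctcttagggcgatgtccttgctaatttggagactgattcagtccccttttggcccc
NOP56: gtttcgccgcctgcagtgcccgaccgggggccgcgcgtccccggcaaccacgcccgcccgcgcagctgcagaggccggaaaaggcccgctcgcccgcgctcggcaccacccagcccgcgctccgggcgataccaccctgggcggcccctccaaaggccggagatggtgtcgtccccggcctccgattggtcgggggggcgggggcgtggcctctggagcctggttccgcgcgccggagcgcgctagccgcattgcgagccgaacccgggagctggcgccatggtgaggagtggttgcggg

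Between the genotypes, 28 of the 30 genes had a lower mean log2 value in ACK KO, against 51.6% of tested genes. The libraries of the genotypes did not overlap for 1 of the 30, against 30% of tested genes. Without regard to the replicate numbers, 0 of the 30 genes were called at the adjusted threshold of 0.05 (limma with Benjamini-Hochberg adjustment over all 16658 genes), while 10.3% of tested genes were. Of the 30, 1 had an unadjusted p under 0.05. The median log2 difference, ACK KO minus WT, was -0.23 over the 30 genes and -0.02 over all tested genes, and the 30 values ran from -1.02 for NPM1 to 0.51 for NOP56. The median depended on single libraries, since it was 0.14 without ACK KO replicate 1 and -0.67 without WT replicate 1. It was also 0.07 without WT replicate 2 and -0.05 without WT replicate 3.

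Libraries with the same number deviated together over all genes, so the genotypes were also compared within replicate numbers. With the replicate number as a block, 13 of the 30 genes were lower in ACK KO and 1 was higher at an adjusted p of 0.05 (limma), against 20% and 19.7% of tested genes, and 16 did not pass. In either direction these are 14 of the 30, against 39.7% of tested genes. ACK KO was the lower library in all 3 pairs for 18 of the 30 genes, against 34.0% of tested genes, and the higher in all 3 for 1, against 31.8%. Of the 30, 19 were lower in ACK KO in the pair of replicate 1, 28 in that of replicate 2 and 29 in that of replicate 3, with medians of -0.13, -0.33 and -0.30. The blocked count rested in part on which pairs were used. It was 25 lower and 1 higher without the replicate 1 pair, where 25.1% and 22.6% of tested genes passed. It was 7 lower and 1 higher without the pair of replicate 2 and again without that of replicate 3, where 12.7% and 13.1% of tested genes were lower and 26.9% and 26.8% were called in either direction. In these blocked fits of 4 libraries the spread has 1 residual degree of freedom per gene and leans on that of all genes. With both replicate 1 libraries left out and no block, 9 of the 30 were lower and 0 higher, against 13.5% and 14.1% of tested genes. NOP56, NHP2, UTP15, WDR12, NOP16, NPM1, DDX21 and LYAR, 8 genes in all, passed with the block and without each pair in turn, as did 22.8% of the 15089 genes tested in all of these fits.

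**Figure D3:**
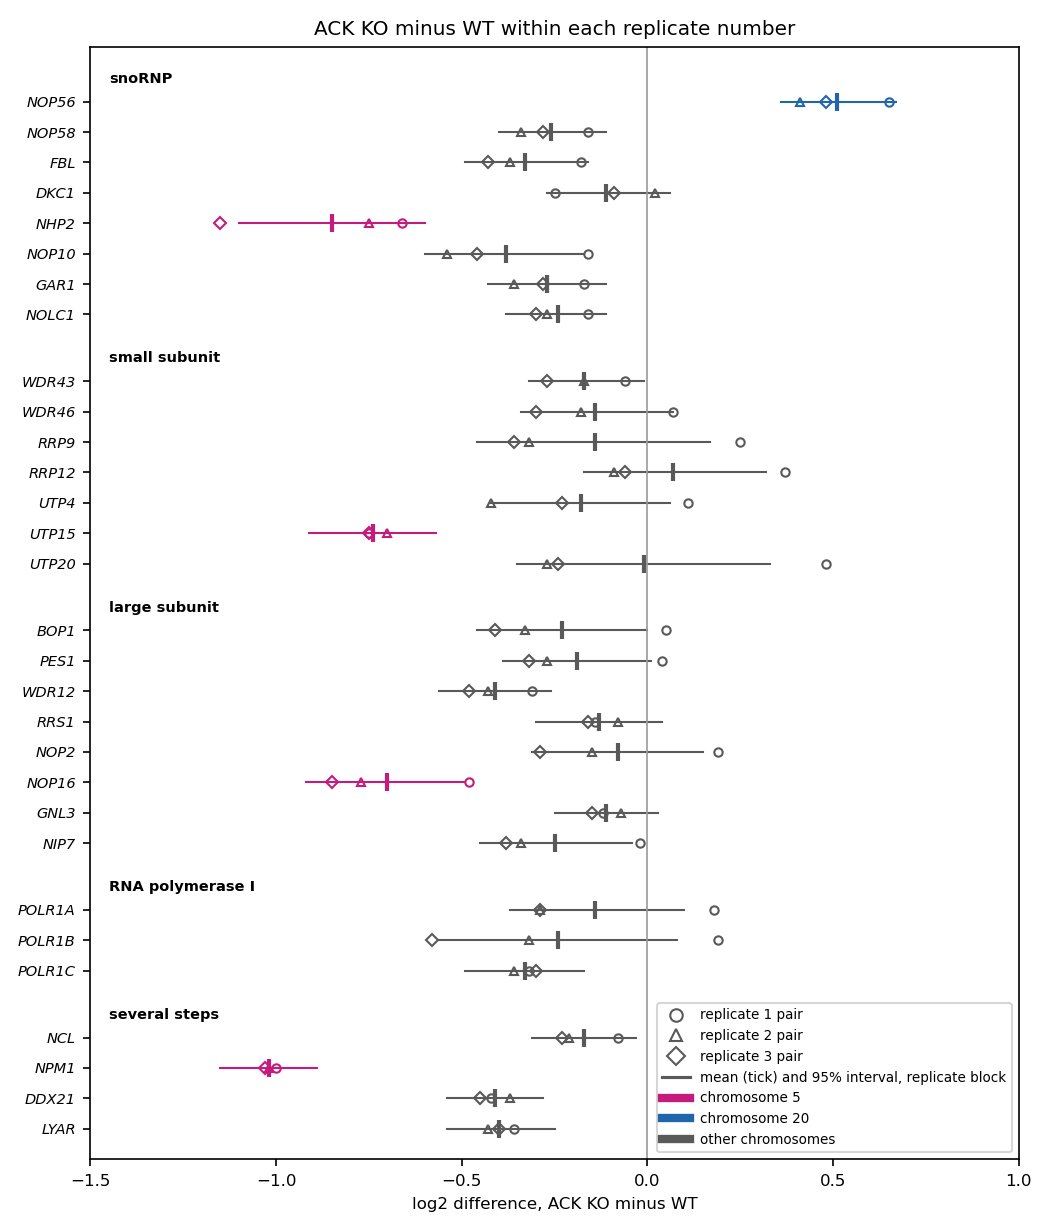
The horizontal axis is the log2 difference ACK KO minus WT, open symbols are the differences within the pairs of replicates 1, 2 and 3, the tick is their mean and the bar its 95% interval in the blocked fit. NPM1, NHP2, UTP15 and NOP16, on chromosome 5, lie farthest to the left, and NOP56, on chromosome 20, is the one gene to the right of 0 in every pair.

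Of the 8 snoRNP genes, NOP56 was called higher with the block and 6 of the other 7 lower. Of all tested genes, 19.7% were called higher and 20% lower. NOP56 and NOP58 are the paired core proteins of box C/D snoRNPs, in which FBL, fibrillarin, is the methyltransferase. NOP56 (ENSG00000101361.17, GRCh38 chromosome 20, 2652145 to 2658393, plus strand) had normalised values of 9097, 26776 and 20419 in ACK KO replicates 1 to 3, against 5814, 20185 and 14602 in WT replicates 1 to 3. The groups overlapped, but each ACK KO library lay above the WT library of its number. The log2 difference was 0.51, at adjusted p = 0.653 unblocked and 0.00114 blocked (limma). NOP58 had 6875, 12801 and 11001 in ACK KO, against 7700, 16166 and 13343 in WT. FBL had 6991, 12236 and 10173 in ACK KO, against 7913, 15818 and 13682 in WT. Both were lower in ACK KO in every pair, with log2 differences of -0.26 and -0.33 and blocked adjusted p-values of 0.0145 and 0.00889 (limma).

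DKC1 (dyskerin, the pseudouridine synthase), NHP2, NOP10 and GAR1 form the box H/ACA core, which is also part of telomerase. NHP2 (ENSG00000145912.8, chromosome 5, 178149460 to 178153967, minus strand) had 1086, 2573 and 1808 in ACK KO, against 1712, 4339 and 4005 in WT. It was lower in each pair, with log2 differences of -0.66, -0.75 and -1.15, and its mean difference of -0.85 gave adjusted p = 0.31 unblocked and 9.83e-04 blocked (limma). NOP10 had 1686, 2569 and 2409 in ACK KO, against 1883, 3727 and 3303 in WT. GAR1 had 2227, 4248 and 3921 in ACK KO, against 2511, 5447 and 4756 in WT. Both were lower in ACK KO in each pair, with log2 differences of -0.38 and -0.27 and blocked adjusted p-values of 0.0149 and 0.0196 (limma). DKC1 differed less, with means of 8500.3 ± 3146 in ACK KO and 8969 ± 2604 in WT (SD, n = 3 each), a log2 difference of -0.11 and a blocked 95% interval of -0.27 to 0.06. NOLC1, a chaperone of snoRNPs that shuttles between nucleolus and cytoplasm, had 8086, 20204 and 16071 in ACK KO, against 9022, 24399.8 and 19807 in WT, with a log2 difference of -0.24 and a blocked adjusted p of 0.0156 (limma). The calls of NOP58, FBL, NOP10, GAR1 and NOLC1 were lost when the pair of replicate 2 or of replicate 3 was left out of the blocked fit, with adjusted p-values of 0.0547 to 0.158 (limma).

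Of the 7 small subunit genes 1, UTP15, passed with the block, against 39.7% of all tested genes. UTP15 is a subunit of the subcomplex of the processome that also holds UTP4 and WDR43 and is linked to transcription of the precursor. It lies on chromosome 5 (ENSG00000164338.10, 73565443 to 73583377, plus strand) and had 776.8, 2254 and 1951 in ACK KO, against 1308, 3673 and 3286 in WT. Each ACK KO library was below the WT library of its number, with log2 differences of -0.75, -0.70 and -0.75, and the mean difference of -0.74 gave adjusted p = 0.472 unblocked and 3.63e-04 blocked (limma). The other 6 had log2 differences from -0.18 for UTP4 to 0.07 for RRP12, and blocked adjusted p-values of 0.0812 for WDR43, 0.201 for UTP4, 0.244 for WDR46, 0.432 for RRP9, 0.597 for RRP12 and 0.968 for UTP20 (limma). UTP20 was higher in ACK KO in the pair of replicate 1, with a log2 difference of 0.48, and lower in those of replicates 2 and 3, with -0.27 and -0.24. RRP9 and RRP12, a factor of subunit export, had the same pattern, with 0.25 and 0.37 in the pair of replicate 1 and values from -0.36 to -0.06 in the others.

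Of the 8 large subunit genes 2, WDR12 and NOP16, passed with the block, against 39.7% of all tested genes. NOP16 (ENSG00000048162.20, chromosome 5, 176383938 to 176388975, minus strand), a factor of early large subunit particles, had 856.8, 3290.3 and 2489 in ACK KO, against 1198, 5620.2 and 4488 in WT. All pairs were lower in ACK KO, with log2 differences of -0.48, -0.77 and -0.85, and the mean difference of -0.70 gave adjusted p = 0.625 unblocked and 0.00116 blocked (limma). WDR12 had 4410.0, 7184 and 6650.0 in ACK KO, against 5467, 9698 and 9262 in WT, with a log2 difference of -0.41 and a blocked adjusted p of 0.0026 (limma). Its partners PES1 and BOP1 had log2 differences of -0.19 and -0.23, with blocked 95% intervals of -0.39 to 0.01 and of -0.46 to 0.00. Of 2 pseudogenes of PES1 in GENCODE 29, 1 had values, up to 339.3 normalised counts in a library. Reads shared with such copies are a source of uncertainty for PES1. RRS1, which helps to bring in the 5S ribonucleoprotein, had -0.13. NOP2, a methyltransferase of the large subunit RNA, had -0.08. GNL3 (nucleostemin, a nucleolar GTPase) had -0.11, and NIP7, a factor of large subunit maturation, had -0.25. The blocked adjusted p-values of these 6 ran from 0.0568 for NIP7 to 0.522 for NOP2 (limma).

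Of the 3 RNA polymerase I genes 1, POLR1C, passed with the block, against 39.7% of all tested genes. POLR1C encodes a subunit that RNA polymerases I and III share and had 1163, 3269.6 and 2819 in ACK KO, against 1452, 4192 and 3477 in WT. Each pair was lower in ACK KO, and the difference of -0.33 had a blocked adjusted p of 0.00891 (limma), but 0.0741 and 0.0601 without the pairs of replicates 2 and 3. POLR1A, the gene of the largest subunit, had 6114, 12256 and 11164 in ACK KO, against 5401, 15009.7 and 13679 in WT. It was higher in ACK KO in the pair of replicate 1 and lower in the others, as was POLR1B. Their log2 differences were -0.14 and -0.24, with blocked intervals of -0.37 to 0.10 and of -0.56 to 0.08.

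Of the 4 genes of several steps 3, NPM1, DDX21 and LYAR, passed with the block, against 39.7% of all tested genes. NPM1 encodes nucleophosmin, an abundant nucleolar chaperone, and lies on chromosome 5 (ENSG00000181163.13, 171387116 to 171411137, plus strand). It had 44832, 78780.1 and 66989 in ACK KO replicates 1 to 3, against 89707, 160084 and 136369 in WT replicates 1 to 3. NPM1 was the one gene of the 30 whose groups did not overlap, with each ACK KO library below each WT library. Its pairs differed by -1.0, -1.02 and -1.03, and the mean difference of -1.02 is a 2.02-fold lower level in ACK KO. The unblocked adjusted p was 0.0808 and the blocked one 3.41e-05 (limma). Unblocked, it was 0.0327 without WT replicate 1 and 0.118 to 0.259 without each of the other 5 libraries in turn (limma). Of 45 pseudogenes of NPM1 in GENCODE 29, 7 had values, none above 87.3 normalised counts in any library, and reads shared with such copies are a source of uncertainty.

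DDX21, an RNA helicase that acts in transcription and processing of the precursor, had 22337, 44625 and 35598 in ACK KO, against 29829, 57659.8 and 48704 in WT. LYAR, a nucleolar zinc finger protein, had 2448, 7029 and 5595 in ACK KO, against 3144, 9451 and 7377 in WT. Both were lower in ACK KO in every pair, with log2 differences of -0.41 and -0.40 and blocked adjusted p-values of 0.0013 and 0.00237 (limma). NCL, which encodes nucleolin, had 45821, 112813 and 89232 in ACK KO, against 48447, 130359 and 104643 in WT. Its difference of -0.17 had a blocked adjusted p of 0.0566 (limma). Per kilobase of annotated exon, NPM1 and NCL had the highest mean normalised values of the 30 genes, with 24379.8 and 20481 in ACK KO and 49394 and 23422 in WT.

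The genes that differed most lie on chromosomes whose genes were shifted as a whole. The 4 of the 30 genes on chromosome 5, NPM1, NHP2, UTP15 and NOP16, had the 4 lowest log2 differences, with a median of -0.79, and the 693 tested genes of chromosome 5 had a median of -0.62. With the block all 4 were called lower in ACK KO, as were 67.4% of tested genes of chromosome 5. A log2 difference below that of NPM1 was found for 16.2% of the tested genes of that chromosome. NOP56 is the one gene of the 30 on chromosome 20, where the median was 0.54 over 393 tested genes, against 0.51 for NOP56, and 69.2% of them were called higher with the block. Chromosomes were looked at because their shifts were known from earlier results of these data, and the part of the shifts in the differences of these 5 genes was not tested. The 25 genes on other chromosomes had a median of -0.19, against -0.03 for the 14488 tested genes on chromosomes other than 5, 7 and 20. Of these 25, 9 were called lower with the block, where 19.3% of the tested genes of those chromosomes were. With the block 0 of the 25 were called higher, where 2482 of the 14488 genes were. Without the block 0 of the 25 passed, where 660 of the 14488 genes were called higher and 593 lower. Of the 5 on chromosomes 5 and 20, 0 passed without the block. There 28.1% of the tested genes of chromosome 5 were called lower and 81 of the 393 of chromosome 20 higher.

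**Figure D4:**
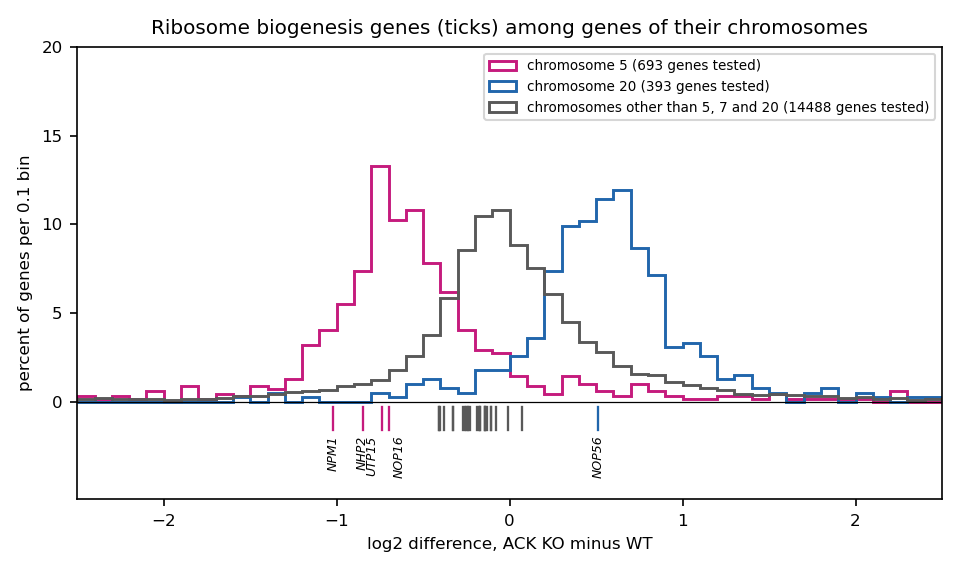
Lines are the percent of tested genes per 0.1 bin of the log2 difference ACK KO minus WT on chromosome 5, on chromosome 20 and on chromosomes other than 5, 7 and 20, with 617 genes beyond the limits of 2.5 not drawn. Ticks below 0 are the 30 ribosome biogenesis genes in the colour of their chromosome, and NPM1, NHP2, UTP15, NOP16 and NOP56 are named.

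Ratios between genes whose products work together, chosen after the values were seen and given without a test, remove the level that a library shares over both genes. The ratio of NOP56 to NOP58 was 1.32, 2.09 and 1.86 in ACK KO replicates 1 to 3, against 0.755, 1.25 and 1.09 in WT replicates 1 to 3. The groups did not overlap, and the ratio was 1.71-fold higher in ACK KO. The ratio of FBL to NOP58 was 0.966 ± 0.0469 in ACK KO and 1.01 ± 0.0278 in WT (SD, n = 3 each). The ratio of NHP2 to DKC1 was 0.211, 0.226 and 0.202 in ACK KO, against 0.28, 0.387 and 0.418 in WT, and its groups did not overlap. GAR1 to DKC1 was 0.414 ± 0.0358 in ACK KO and 0.464 ± 0.0468 in WT, with overlapping groups. BOP1 to PES1 was within 0.862 to 0.906 in ACK KO and 0.894 to 0.947 in WT. NPM1 to NCL was 0.978, 0.698 and 0.751 in ACK KO, against 1.85, 1.23 and 1.30 in WT, and was highest in replicate 1 of each genotype. Groups also overlapped for NOP10 to DKC1, WDR12 to PES1 and POLR1B to POLR1A. In the ratios whose groups did not overlap, NOP56 lies on chromosome 20, NHP2 and NPM1 on chromosome 5, and their partners elsewhere. The part of the chromosome shifts in these ratios was not tested.

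**Figure D5:**
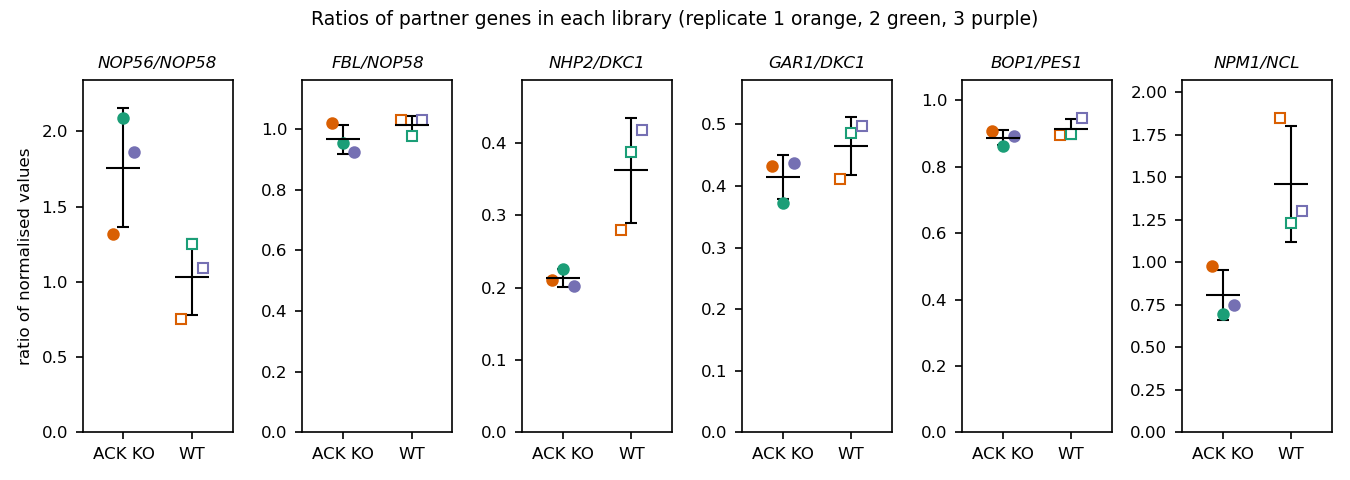
Each panel gives 1 ratio of normalised values on a linear axis from 0, with ACK KO at the left and WT at the right, points for the libraries, and the mean with its SD (n = 3 each). The groups are apart for NOP56 to NOP58, NHP2 to DKC1 and NPM1 to NCL, and overlap for FBL to NOP58, GAR1 to DKC1 and BOP1 to PES1.

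The 30 genes also differ in what they carry. In GENCODE 29, 7 of them hold 24 snoRNA genes on their own strand, with 6 in GNL3, 5 in NOP56, 4 in NOP58, 3 each in WDR43 and NCL, 2 in DKC1 and 1 in POLR1C. Polyadenylated RNA libraries measure the host transcript, not the snoRNA. The bodies of 14 of the 30 genes overlap another gene, among them NHP2 with RMND5B, UTP15 with ANKRA2 and NOP16 with ARL10 and HIGD2A. The library kit keeps the strand, but the sources used here do not name the counting settings, so values of overlapping genes are uncertain.

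Other genes of the pathway, 151 in 7 classes and none of them among the 30, followed the same pattern in replicate 1. Of these, 133 were lowest in replicate 1 in both genotypes and 7 highest, where 33.3% and 34.4% of tested genes were. This held for 10 of 12 genes of snoRNP assembly, 48 of 50 small subunit genes, 48 of 51 large subunit genes, 11 of 12 RNA polymerase I genes, 12 of 15 RNA polymerase III genes and MYC, but for 3 of 10 host genes of snoRNAs. The median log2 difference of replicate 1 was -0.80 in ACK KO and -0.93 in WT for the small subunit genes, and -0.80 and -0.94 for the large subunit genes. It was -0.54 and -0.47 for RNA polymerase I genes and -0.52 and -0.38 for RNA polymerase III genes. For the snoRNA host genes, long noncoding RNAs whose introns hold snoRNAs, it was -0.11 in ACK KO and 0.06 in WT.

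Between the genotypes, 3 of the 151 genes fell in ACK KO without the block, 0 rose and 148 did not pass (limma), where 4.96% of tested genes were called lower and 5.37% higher. The 3 were NMD3, NSA2 and BDP1. NMD3, the adaptor that exports the large subunit, had 3711, 3904 and 3826 in ACK KO, against 5996, 5366 and 5024 in WT. It was 1.43-fold lower with an adjusted p of 0.0385 (limma). NSA2, a factor of large subunit precursors on chromosome 5, averaged 4019 ± 567.8 in ACK KO and 7292 ± 1606 in WT (SD, n = 3 each), with an adjusted p of 0.0415 (limma). BDP1, a subunit of the initiation factor TFIIIB of RNA polymerase III and also on chromosome 5, averaged 5268 ± 523.8 in ACK KO and 8100.1 ± 564.0 in WT, with an adjusted p of 0.0257 (limma). All 3 calls were lost in each fit without ACK KO replicate 1, 2 or 3 or without WT replicate 2 or 3. Over the fits without 1 library, the adjusted p of NMD3, NSA2 and BDP1 reached 0.169, 0.167 and 0.131 (limma). The call of NMD3 was also lost with values rescaled to the same sum, at an adjusted p of 0.11, and with quantile normalization, at 0.0863 (limma). With the block 52 of the 151 genes fell, 13 rose and 86 did not pass, where 20% of tested genes were lower and 19.7% higher. MYC had a log2 difference of -0.21 (SE 0.21), at adjusted p = 0.624 unblocked and 0.0378 blocked (limma).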

How the data were processed

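Polyadenylated RNA was sequenced from 6 K562 libraries, 3 ACK KO and 3 WT. The table the authors deposited holds normalised counts per gene, treated here as a signal because the values are neither whole numbers nor on a log scale, and the normalisation itself is not described. Whole reads could not be recovered: the best step per library placed 18.1% to 36.3% of values under 20 within 0.02 of a whole multiple. Per the submitters' processing notes, the build was GRCh38 and the tools were R 3.6.1, DESeq2 1.26.0, Salmon 1.1.0, STAR 2.7.2b, SAMtools and FastQC 0.11.7, with no role or order named. How reads were counted is not given there. Depth is unknown, so errors are the spread between libraries.

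Symbols came from a name table (19392 of 19498 identifiers) and positions from GENCODE 29 (19112). In R 4.3.3, limma 3.58.1 (trend) was fitted to log2(value + 1) of the 16658 genes that reached 10 in 3 or more libraries, with Benjamini-Hochberg adjustment and a threshold of 0.05. A log2 difference is ACK KO minus WT. The second fit has the replicate number as a block. It stands beside the first because deviations from the group means correlated at 0.699, 0.521 and 0.342 between libraries of the same number, each above a limit of 0.1. The meaning of the numbers is not labelled, and the unlike numbers 2 and 3 also correlated, at 0.257 and 0.281. Python 3.11.15 and scipy 1.17.1 were used for summaries and the exact test.

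The 30 genes and all lists were chosen with earlier results of these data known. Values per library are given for genes past the threshold in either fit and for the gene of each step with the smallest p, and further ones, such as UTP20, were chosen after their values were seen. Of the other pathway genes, those past the unblocked threshold are named. Alternatives were the pseudocount, the filter, the scaling, single libraries left out and both replicate 1 libraries left out.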

Additional observations from a re-analysis of the deposited data

How the results depend on the processing

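Numbers of the 30 genes called did not change with a pseudocount of 0.5 or 5, without the filter or with values rescaled to the same sum, and quantile normalization gave 1 lower, NPM1. Rescaling to the same sum moved the median log2 difference of all tested genes to 0.08, against -0.02, and that of the 30 genes to -0.13, and quantile normalization gave -0.15 for the 30. With the replicate block 13 of the 30 were lower and 1 higher, and of the 151 other genes 52 were lower and 13 higher. Leaving out both replicate 1 libraries gave 9 of the 30 lower and 0 higher, 8 of them also called with the block. In that fit 29 of the 151 were lower and 4 higher, against 13.5% and 14.1% of tested genes. Without 1 library in turn, 0 to 1 of the 30 were lower, 0 higher, with a median of -0.67 to 0.14, and 0 to 6 of the 151 were lower and 0 to 1 higher. The blocked fits without 1 pair, added after the data were seen, gave 7, 7 or 25 of the 30 lower and 1 higher, and 28, 30 or 91 lower and 9, 10 or 16 higher of the 151. Of tested genes, 25.1% were lower and 22.6% higher in the blocked fit without the pair of replicate 1. The shares were 12.7% and 14.2% without the pair of replicate 2, and 13.1% and 13.8% without that of replicate 3. The cause of the changes between fits was not tested. Of genes near 0, the log2 difference of RRP12 became -0.07 without both replicate 1 libraries or the pair of replicate 1, that of UTP20 0.09 with either rescaling and 0.12 and 0.11 without the pair of replicate 2 or 3, and that of NOP2 0.02 with values rescaled to the same sum or without the pair of replicate 3. With 1 library left out, the sign of the log2 difference turned for 20 of the 30 genes in the fit lacking ACK KO replicate 1, for 1 each lacking ACK KO replicate 2 or 3, and for 2, 16 and 8 lacking WT replicate 1, 2 or 3. The ranges over these fits were NOP56 -0.01 to 0.97, NOP58 -0.57 to 0.00, DKC1 -0.36 to 0.22, GAR1 -0.61 to 0.02, NOLC1 -0.67 to 0.14, WDR43 -0.56 to 0.18, WDR46 -0.61 to 0.23, RRP9 -0.82 to 0.34, RRP12 -0.44 to 0.44, UTP4 -0.62 to 0.13, UTP20 -0.82 to 0.56, BOP1 -0.71 to 0.11, PES1 -0.66 to 0.17, RRS1 -0.69 to 0.45, NOP2 -0.48 to 0.17, GNL3 -0.55 to 0.33, NIP7 -0.78 to 0.17, POLR1A -0.60 to 0.18, POLR1B -0.75 to 0.06, POLR1C -0.79 to 0.13, NCL -0.60 to 0.20 and LYAR -0.87 to 0.06. The replicate 1 medians ran from -1.25 to -0.89 in ACK KO and from -1.48 to -1.17 in WT over the alternatives tried, and rescaling to the same sum moved the same median over all tested genes to 0.18 in both. Depth is unknown and 3 libraries per genotype limit precision.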
